A study of Drosophila melanogaster with 24 samples.

Results

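The regions described here are places in the fly genome where CLK and CYC, the 2 partner transcription factors of the circadian clock, gave a called peak in every tagged head library and in no tagged body library. Regions touched by a peak of any untagged control library were left out. Peaks of the 8 tagged lists were merged wherever they overlapped by 1 bp or more, which gave 21802 regions. Of these, 274 met the rule, or 1.26% of all merged regions and 20.6% of the 1327 regions with a peak in all 4 head lists. The regions were chosen by the measured peak calls of these same lists, so the presence of head peaks and the absence of body and mock peaks are a description and were not tested.

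CLK and CYC are basic helix-loop-helix PAS proteins that bind together to E-box elements and switch on clock genes such as period and timeless, whose products later shut the pair down. A further loop runs through vrille and Pdp1, which the pair also activates. Clocks of this kind run in the eye, in brain neurons and glia and in the fat body of the head, and in gut, fat body and other tissues of the rest of the fly. The pair is known to reach part of its sites in some tissues and not in others.

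The study used chromatin immunoprecipitation with an antibody to the V5 tag followed by sequencing. The groups are heads of flies with V5-tagged CLK (strain Clk), heads with V5-tagged CYC (strain cyc), bodies with either tagged factor, and the mock controls, which are heads or bodies of w- flies that carry no tag. Each group has 2 pull-downs, described by the design text as independent biological replicates, and each is paired with an input library of its own. All flies were 5 to 10 days old, were kept at 25 °C in 12 h of light and 12 h of dark, and were frozen at ZT13, which is 1 h after the lights went off. Each library came from pooled heads or pooled bodies, and how the tag was put into the flies is not given in the sources used here. Sonication ran for 6 rounds in heads and 4 in bodies, so this step cannot be told apart from the tissue. In such whole-tissue chromatin, fewer cells with a bound site and less binding per cell cannot be told apart either.

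The lists differ widely in length and 1 library stands apart. Tagged head lists held 4609 to 13729 peaks and tagged body lists 1153 to 3967, so fewer sites could carry a body peak than a head peak. Depth of the libraries is unknown, and a region without a called peak may still be bound. Head mock replicate 1 held 12082 peaks, against 73 to 1726 in the other 3 mock lists. Without it the rule gave 709 regions, so this single control decided the fate of 435 of them. Without head CYC replicate 2 the rule gave 607 regions, and leaving out any of the other 10 libraries gave 274 to 395. Each peak carries 2 unnamed values from the authors, called the first and the second score here. In the tagged lists the lowest first score is 2.0 and the lowest second score 2.01, and the scale of both is unknown.

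At most head-only regions each head library contributed exactly 1 peak, as was the case in 249 of 274. The regions were 322 to 958 bp wide with a median of 346 bp. All peaks of a list have the same width, 254 to 322 bp in the tagged head lists, so the width of a region reflects the offsets between its peaks and not the extent of binding. Midpoints of the CLK and the CYC peak lay a median of 18 bp apart in replicate 1 and 30.5 bp apart in replicate 2. Regions were built from overlapping peaks and needed a peak in every head list, so the rule itself keeps these midpoints near each other. Their closeness is therefore a description and was not tested. Larger distances could still occur, up to 436 bp in replicate 1 and 650 bp in replicate 2. The median distances were 13 and 20 bp at the 173 regions found in all 8 tagged lists, which are the sites shared by heads and bodies. Within 50 bp of each other lay 85.4% of the CLK and CYC midpoints of replicate 1 and 73.7% of those of replicate 2 at the head-only regions, against 90.2% and 80.9% at the shared regions. No test was made of this difference, because regions are not replicates.

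The head-only regions had scores above the middle of each head list but below those of head regions that also had body peaks. The rule asked for a peak in all 4 head lists and for none in the shorter body lists, so it bears on both parts. The median rank of the head-only regions lay at 14.5% and 27.1% of the list from the top in CLK replicates 1 and 2. In CYC it lay at 26.4% and 23.5%. The median first score was 13.6 and 9.98 in head CLK replicates 1 and 2, and 4.6 and 4.26 in head CYC replicates 1 and 2. At the 173 shared regions the medians were 46.8 and 29.1 for CLK and 16.9 and 15.7 for CYC. Many shared regions overlap a mock peak, and the 93 that do not had medians of 28.7 and 25.6 for CLK and 13.3 and 13.1 for CYC. At 172 head regions that had no mock peak but had a peak in 1 to 3 body lists, they were 16.4 and 13.7 for CLK and 6.5 and 6.82 for CYC. In all 4 lists the median of the head-only regions was thus below that of both classes with body peaks. The 527 head-only regions that did overlap a mock peak had medians of 15 and 7.6 for CLK and 5.18 and 3.96 for CYC, which lie on either side of the mock-free values. In CYC, 25.5% and 23.7% of the head-only regions scored under 3, close to the lowest value the lists report, and in CLK 1.46% and 4.38% did. Over all peaks of the same lists these shares were higher, at 45.5% and 50.2% in CYC and 28.4% and 16.4% in CLK. The head-only regions with a mock peak had 12% and 23.9% in CYC and 2.28% and 7.02% in CLK. At the 172 regions with a peak in 1 to 3 body lists they were 8.72% and 5.81% in CYC and 1.16% and 2.33% in CLK.

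**Figure D1:**
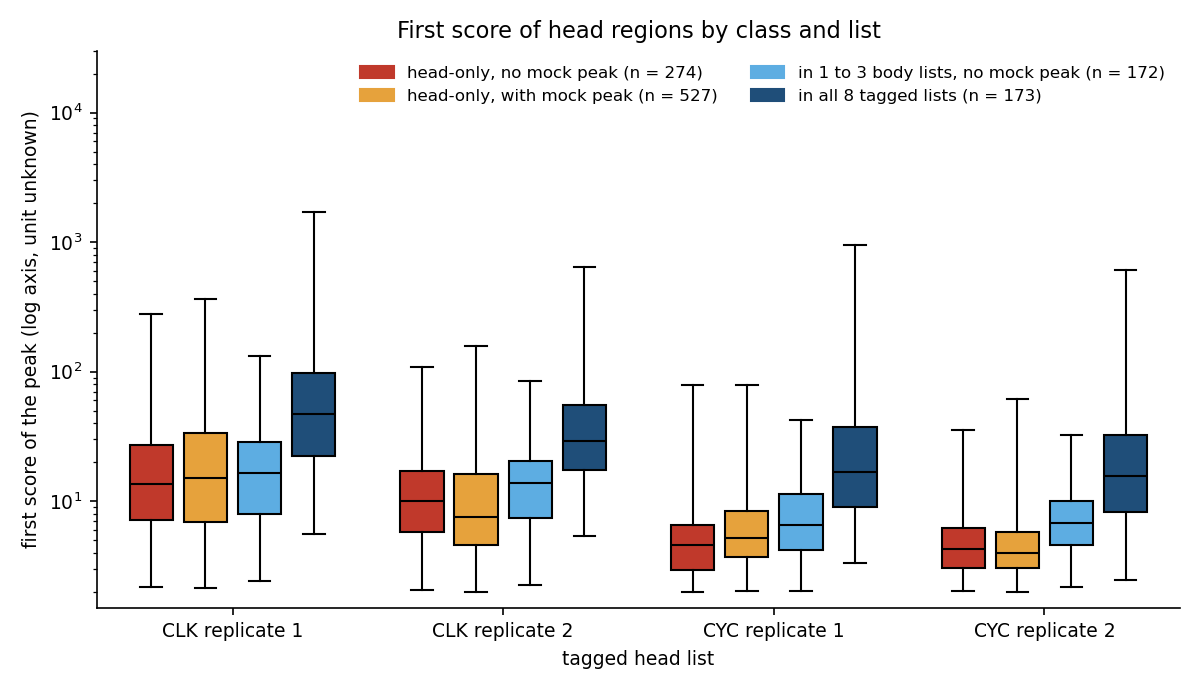
First score (log axis, unit unknown) of head regions in the 4 tagged head lists, by class; boxes give the quartiles and median, whiskers the lowest and highest region. The median of the 274 head-only regions without mock peak is 13.6 and 9.98 in CLK and 4.6 and 4.26 in CYC, below the medians of the 173 regions found in all 8 tagged lists in each of the 4 lists.

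The best placed region, by the mean over the 4 head lists of its rank as a share of the list, was X 11677107 to 11677435. Its first score was 279 and 109 in CLK replicates 1 and 2 and 78.2 and 34.9 in CYC. It had no near neighbour of its kind, with 157332 bp to the next head-only region and 727527 bp to the nearest shared one. The next 2 places belonged to a pair on 2L separated by 294 bp. Of these, 14249981 to 14250303 scored 182 and 83 in CLK and 43.9 and 35.3 in CYC. Its neighbour 14249343 to 14249687 scored 130 and 68.8 in CLK and 32 and 30.1 in CYC. The pair stands 19093 bp or more from any body peak and 4806 bp or more from any mock peak.

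The remaining best placed regions differed in how clear their surroundings were. X 8018149 to 8018483 scored 117 and 44.5 in CLK and 37.1 and 33.4 in CYC, with 11958 bp to the nearest body peak. 3R 20369070 to 20369396 scored 172 and 43.2 in CLK and 45.3 and 23.1 in CYC. Only 72 bp from its edge lay a body peak with a mock peak 832 bp away, so its head-only status rests on a narrow gap. 2L 9704501 to 9704880 scored 111 and 31.9 in CLK and 26.8 and 16 in CYC. That region lay 28 bp from a mock peak and 998 bp from a body peak. 3R 22268649 to 22268971 scored 65.8 and 40.3 in CLK and 19.4 and 19.3 in CYC, and 3L 21442202 to 21442580 scored 99.3 and 44.9 in CLK and 16.1 and 11.3 in CYC. Both stood clear of body and mock peaks, with nearest gaps of 17608 bp and 35627 bp. 2L 21311001 to 21311348 scored 213 and 74.2 in CLK and 19.1 and 12.6 in CYC and lay 2694 bp from a shared region. 2L 5285151 to 5285474 scored 226 and 68.5 in CLK and 12.2 and 10.4 in CYC, and its nearest shared region was 3318 bp away.

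At the edge of the rule some regions were barely inside and others barely outside. The lowest scores among the head-only regions were 2.0 in CYC replicate 1 at 3L 452880 to 453203, 2.01 in the same list at 3L 12733904 to 12734296 and 2.02 in CYC replicate 2 at 2R 11844655 to 11844988. In all, 104 of 274 had a score under 3 in at least 1 head list. No matching count was taken over all 1327 regions with a peak in all 4 head lists, so 104 cannot be set against head regions in general. Just outside the rule, 58 mock-free regions in all 4 head lists had a peak in exactly 1 body list, which was body CYC replicate 1 in 43 of them. The best placed of these was 3R 9505479 to 9505810, with 126 and 70.1 in CLK, 24 and 15.7 in CYC, and 5.56 in body CYC replicate 1. Next came 2R 17502009 to 17502331 and 2R 5634321 to 5634664, with body CYC scores of 8.82 and 8.39. A further 445 regions failed by 1 mock list, which was head mock replicate 1 in 435. Their best placed members were 3L 5720525 to 5720847, 2R 5143903 to 5144225 and 2L 9705242 to 9705564, with mock scores of 4.52, 5.3 and 6.99 against CLK replicate 1 scores of 253, 361 and 295. The last of them lies next to the head-only region 2L 9704501 to 9704880. Finally 532 regions without body or mock peak missed 1 head list. Their best placed members, 2R 4555078 to 4555400, 3L 14204839 to 14205161 and 3R 24671672 to 24671994, lacked only CYC replicate 2 and scored 73.1, 68.7 and 63.9 in CLK replicate 1.

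By the first score as deposited, CLK stood above CYC at most head-only regions. Over the whole lists the median first score was also higher in CLK, at 4.55 and 5.71, than in CYC, at 3.16 and 2.99. The ratios and counts per region that follow include this difference between the lists. By median rank within the list CLK was better placed in replicate 1, at 14.5% against 26.4%. In replicate 2 CYC was better placed, at 23.5% against 27.1%. The median log2 of the CLK over the CYC first score was 1.69 in replicate 1 (95% order-statistic interval 1.52 to 1.83), a ratio of 3.22. In replicate 2 it was 1.07 (0.97 to 1.19), a ratio of 2.09. Each interval runs over regions within a single pair of libraries and does not cover the spread between libraries. CLK was the higher of the pair in both replicates at 226 of 274 regions, or 82.5%, and CYC in both at 11, or 4.01%. Over all 1327 regions in the 4 head lists the same shares were 82.9% and 4.82%, so the direction is that of head regions in general. The rest, 37 regions, changed side between the replicates or tied. A region that leaned to CLK in replicate 1 tended to do so in replicate 2, with a Pearson r of 0.77 across the 274 regions, which share the same 4 libraries. Relative to the median of its own list, the log2 score of the head-only regions was 1.19 ± 0.54 in CLK and 0.53 ± 0.02 in CYC (mean ± SD, n = 2 each). The difference of 0.66 had an exact permutation p of 0.3333 (two-sided), the smallest that 6 arrangements of 2 and 2 libraries allow, so no difference between the factors could be shown. It rests mostly on CLK replicate 1, without which it was 0.25.

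**Figure D2:**
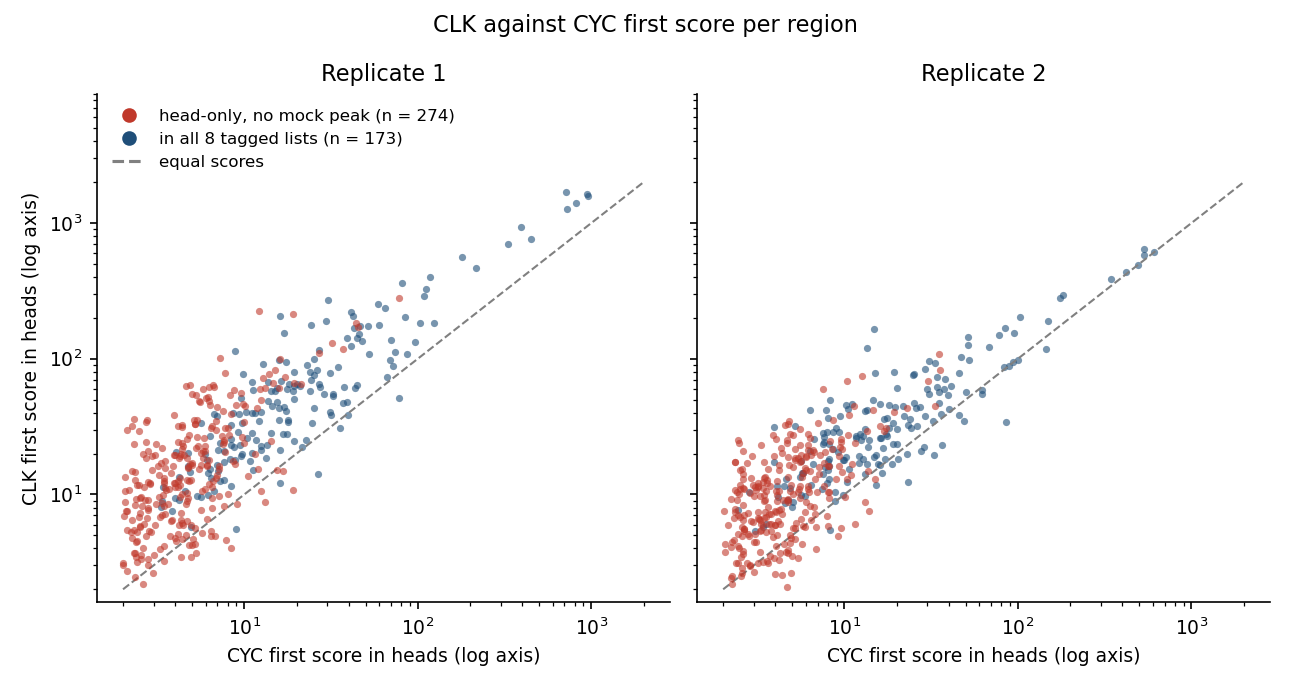
CLK first score against CYC first score in heads (both log axes), one point per region, for replicate 1 and replicate 2; the dashed line marks equal scores. Head-only regions lie mostly above the line, with CLK the higher at 252 of 274 in replicate 1 and 237 of 274 in replicate 2. Scores are as deposited and not scaled to the list.

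Set against the shared regions within the same pair of libraries, the head-only regions leaned further to CLK. The median log2 ratio of 1.69 and 1.07 at the head-only regions compares with 1.33 and 0.84 at the shared ones, a gap of 0.35 in replicate 1 and 0.22 in replicate 2 (mean 0.29 ± 0.09, SD, n = 2). The 172 regions found in part of the body lists had 1.29 and 0.85, and the head-only regions with a mock peak had 1.62 and 0.93. The 93 shared regions without a mock peak had 1.33 and 0.77, a gap of 0.36 and 0.29. No test of these gaps was made. The gap of 0.29 did not hold in every setting. It was 0.12 by the second score, 0.15 without head CYC replicate 1, 0.18 without body CYC replicate 2 and -0.11 without head CLK replicate 2.

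The ratio also depended on strength, in which the classes differ. Strength is taken here as the geometric mean of the 4 head first scores, which weights CLK and CYC alike. Among regions of strength 8 to 16, the 83 head-only ones had a median log2 ratio of 2.12 and 1.63 in replicates 1 and 2. The 57 regions in part of the body lists had 1.51 and 1.11, and the 41 shared regions had 1.22 and 0.9. Among regions of strength 16 to 32 the values were 2.25 and 1.41 for 23 head-only regions, 1.47 and 1.14 for 34 partly shared ones and 1.69 and 1.03 for 53 shared ones. Below strength 4 the head-only regions, 38 in number, had only 0.54 and 0.1. In the weakest regions both scores are close to the lowest value the lists report. The gap to the shared regions thus varied with strength. Its mean was 0.81 in the 8 to 16 band, which was chosen after the data had been seen. In the 4 to 8 band, 122 head-only regions had 1.52 and 0.99 and 14 shared regions 1.16 and 0.88. The head-only regions with a mock peak had 2.15 and 1.46 in the 8 to 16 band, against 2.12 and 1.63 without one, and 1.19 and 0.68 in the 4 to 8 band. In the 16 to 32 band the 59 with a mock peak had 2.66 and 2.1, above the 2.25 and 1.41 without one.

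**Figure D3:**
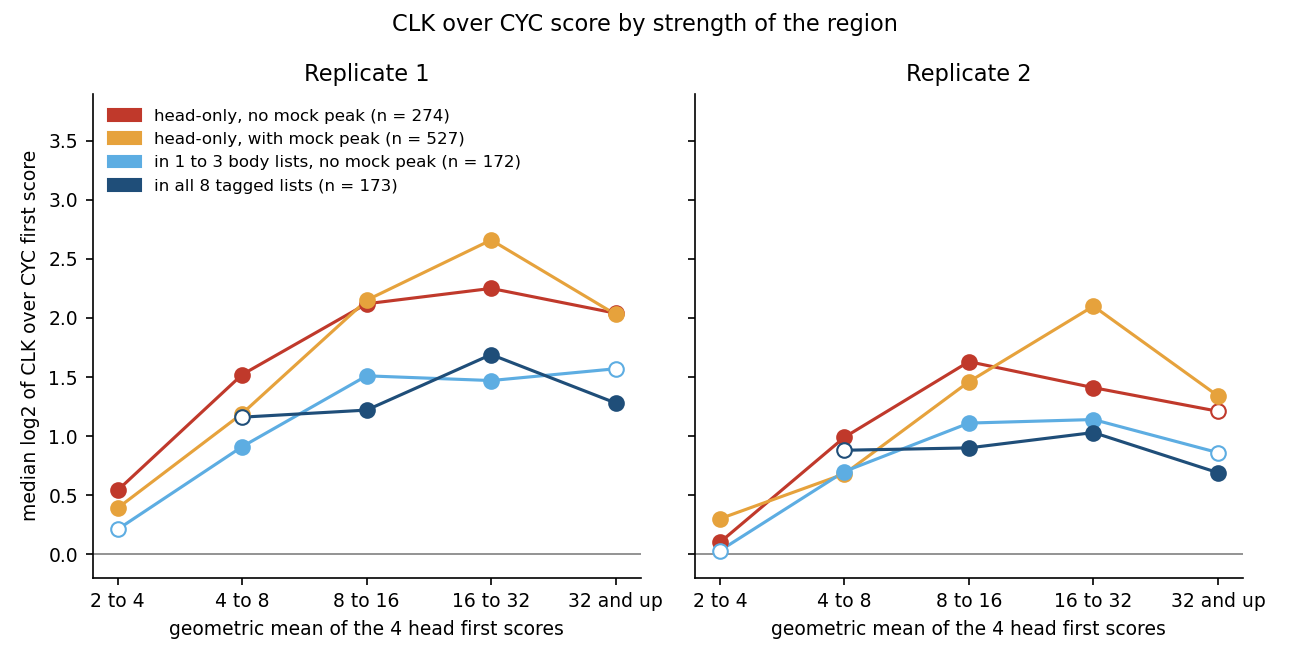
Median log2 ratio of the CLK over the CYC first score, by strength of the region (geometric mean of the 4 head first scores), for 4 classes of head regions in replicates 1 and 2; open points hold under 20 regions. In the 8 to 16 band the head-only regions without mock peak stand at 2.12 and 1.63 and the regions in all 8 lists at 1.22 and 0.9.

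The extremes show how far single regions departed from the middle. The strongest lean to CLK was at 3L 16515470 to 16515833, where CLK scored 35.9 and 25.4, CYC scored 2.32 and 2.42 and the mean log2 ratio was 3.67. It was followed by 2L 5285151 to 5285474 with a mean log2 ratio of 3.47, 2R 15078702 to 15079034 with 3.4, 2L 8264554 to 8264931 with 3.29 and 3R 552051 to 552419 with 3.28. The second of these is among the best placed head-only regions, and the third scored 102 and 59.9 in CLK and 7.26 and 7.54 in CYC. In the other 3, CYC stayed under 3 in both replicates, near the floor of the lists.

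At the other end CYC was the higher partner. At X 11315082 to 11315433 CLK scored 4.06 and 4.94, CYC scored 8.41 and 9.21 and the mean log2 ratio was -0.97. The next were 3L 456603 to 456940 with -0.66, 3R 21833553 to 21833922 with -0.59, 3R 822226 to 822581 with -0.58 and X 12565731 to 12566071 with -0.53. All 5 had CYC above CLK in both replicates, and none had a CLK score above 10.5. The region 3R 822226 to 822581 had 8.72 and 8.8 in CLK and 13.1 and 13.1 in CYC, so here the replicates of each factor were nearly equal.

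In the relation of the second to the first score, the head-only regions resembled the head lists as a whole, while sites seen in bodies departed from them. This comparison was chosen after the values had been seen and has no test. At the head-only regions the second score exceeded the first in 60.6% and 22.3% of regions in CLK replicates 1 and 2 and in 76.3% and 56.6% in CYC. At the regions in part of the body lists it did so in 11% and 11% in CLK and 19.2% and 16.3% in CYC. At the shared regions the shares were 3.47% and 3.47% in CLK and 7.51% and 7.51% in CYC. In each of the 4 lists the head-only share was near the share over all peaks of that list, which was 59.9% and 22.8% in CLK and 70.4% and 57.8% in CYC. The head-only regions with a mock peak had 61.3% and 13.7% in CLK and 74.8% and 38.5% in CYC, high in replicate 1 and lower in replicate 2. In head mock replicate 1 itself the second score was the higher in 68.1% of peaks, and in the tagged body lists in 13.4% to 25.6%. What part the mock signal has in this was not tested.

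This difference in the relation of the scores was also present at equal strength. In the 8 to 16 band the second score was the higher at 57.8% and 18.1% of 83 head-only regions in CLK and at 69.9% and 47% in CYC. The 57 partly shared regions of that band had 1.75% and 5.26% in CLK and 5.26% and 10.5% in CYC. The log2 of the second over the first score was higher at the head-only than at the partly shared regions by a mean of 0.95 over the 4 head lists. That value ran from 0.78 to 1.13 over 8 other settings and from 0.84 to 1.09 when single libraries were left out. In 41 head-only regions, or 15%, the first score was the higher or equal in all 4 head lists, against 16.5% of the head-only regions with a mock peak, 66.9% of the partly shared and 86.1% of the shared regions. Over all 1327 regions in the 4 head lists the share was 37.7%.

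**Figure D4:**
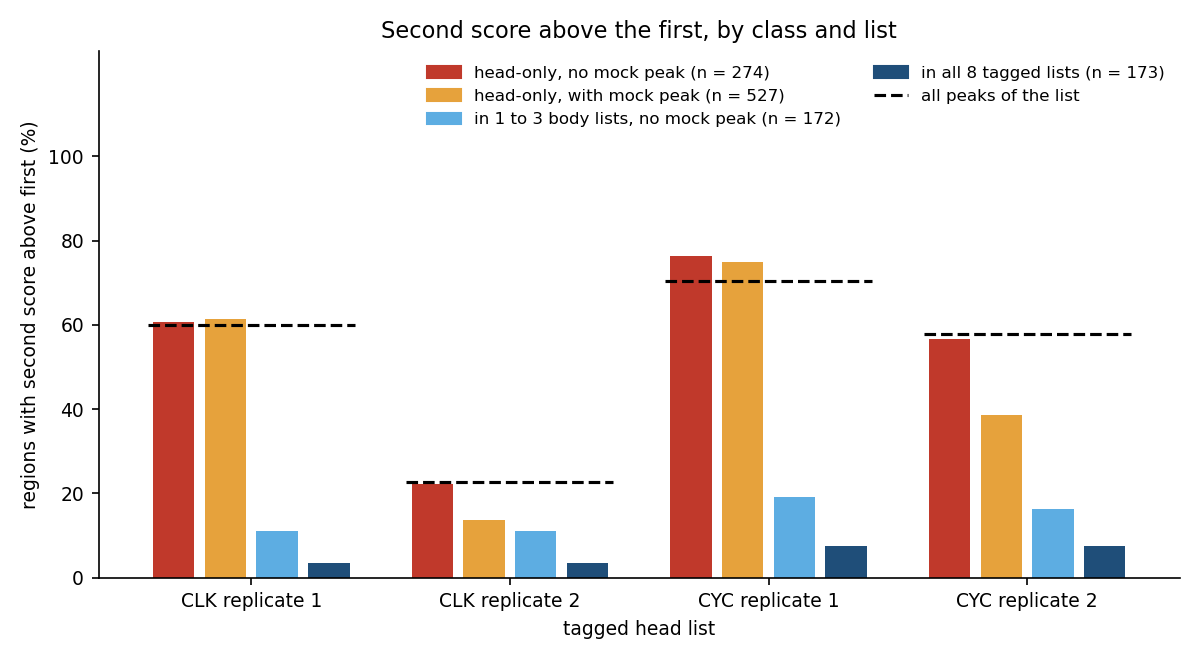
Share of regions (%) whose second score exceeds the first, in each tagged head list, for 4 classes of head regions; the dashed line is the share over all peaks of the list. Head-only regions without mock peak reach 22.3% to 76.3%, regions in 1 to 3 body lists 11% to 19.2% and regions in all 8 lists 3.47% to 7.51%.

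Head-only regions with different score relations also lay in different surroundings. The 41 regions where the second score was nowhere the higher lay a median of 1386 bp from the nearest body peak and 1524 bp from the nearest mock peak. For the 126 regions where it was the higher in 3 or 4 lists these medians were 18635 bp and 4774 bp. The CLK over CYC ratio was similar in both sets, with median log2 values of 1.84 and 1.05 in the first set and 1.64 and 1.06 in the second. The sets also differed in strength, with medians of 9.54 in the first and 6.17 in the second. Their median distances to a shared region were 143913 bp and 268429 bp. Between them stood 107 regions where the second score was the higher in 1 or 2 lists. These lay a median of 5054 bp from a body peak and 2386 bp from a mock peak. Their median distance to a shared region, 295746 bp, was above that of both end sets. No test was made of these differences. The highest second score of all head lists was at the best placed region, X 11677107 to 11677435, with 6561 in CLK replicate 1 and 35.6 in CLK replicate 2. What the second score measures is not given in the sources used here.

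Head-only regions were scattered along the chromosome arms and rarely stood in groups. The median distance to the next head-only region was 121292 bp (95% order-statistic interval 100576 to 151558). With groups formed where neighbours were at most 5000 bp apart, 22 of 274 regions were grouped, or 8.03% (exact binomial interval 5.1 to 11.9, counting error only). These were 11 pairs, and no group held 3 or more. Among the 173 shared regions 30.1% were grouped (23.3 to 37.5), in groups of up to 8. Among the 172 partly shared regions 6.98% were (3.66 to 11.9). With the shared regions' groups of 4 or more set aside, 16.6% of the remaining 145 were still grouped. Head-only regions with a mock peak were grouped in 27.3% of 527 cases, and the 93 shared regions without a mock peak in 23.7%. The classes differ in size, and what part size has in these shares was not tested. Mock removal bears on the head-only result. Without it 26.8% of head-only regions were grouped, without head mock replicate 1 it was 24.5% with a median distance of 26802 bp, and without head CYC replicate 2 it was 15.5% with a median distance of 44065 bp.

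In the 5 best placed pairs both partners leaned to CLK. The pair on 2L described above had mean log2 ratios of 1.61 and 1.64. On X, 8017788 to 8018142 and 8018149 to 8018483 were only 7 bp apart and scored 43.3 and 117 in CLK replicate 1, with ratios of 1.56 and 1.04. Another pair on X, 18457382 to 18457711 and 18458698 to 18459027, had a gap of 987 bp, CLK replicate 1 scores of 56.1 and 32.3 and ratios of 2.5 and 2.26. The last X pair, 3488124 to 3488458 and 3488523 to 3488845, had a gap of 65 bp, scores of 45.8 and 16.9 and ratios of 2.51 and 2.48. On 2R, 12278503 to 12278834 and 12283357 to 12283721 had a gap of 4523 bp, scores of 44.5 and 12 and ratios of 1.74 and 2.09. In each of these 5 pairs the same partner had the higher first score in all 4 head lists. Over all 11 pairs the partners' ratios differed by 0.03 to 1.11 on the log2 scale.

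Isolation from one another did not mean isolation from other peaks. At 244 of 274 head-only regions another merged region of any kind lay within 5000 bp. Over all 274 the median distance to the nearest merged region was 480 bp. The matching values over all merged regions were not computed. It is therefore unknown whether so near a neighbour is particular to head-only regions or common to merged regions in general. Another region with a peak in all 4 head lists lay within 5000 bp of 76 head-only regions, or 27.7%. The share was 40.5% over all 1327 regions in the 4 head lists and 56.1% among the shared regions. Of the head-only regions, 27 had a head-only region with mock peak within that distance, 14 had a shared region and 11 a partly shared one. A mock peak lay within 500 bp of 47 head-only regions without overlap, against 42 of the 172 partly shared regions. A body peak lay within 500 bp of 22 without overlap, against 47 of the 527 head-only regions with a mock peak.

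**Figure D5:**
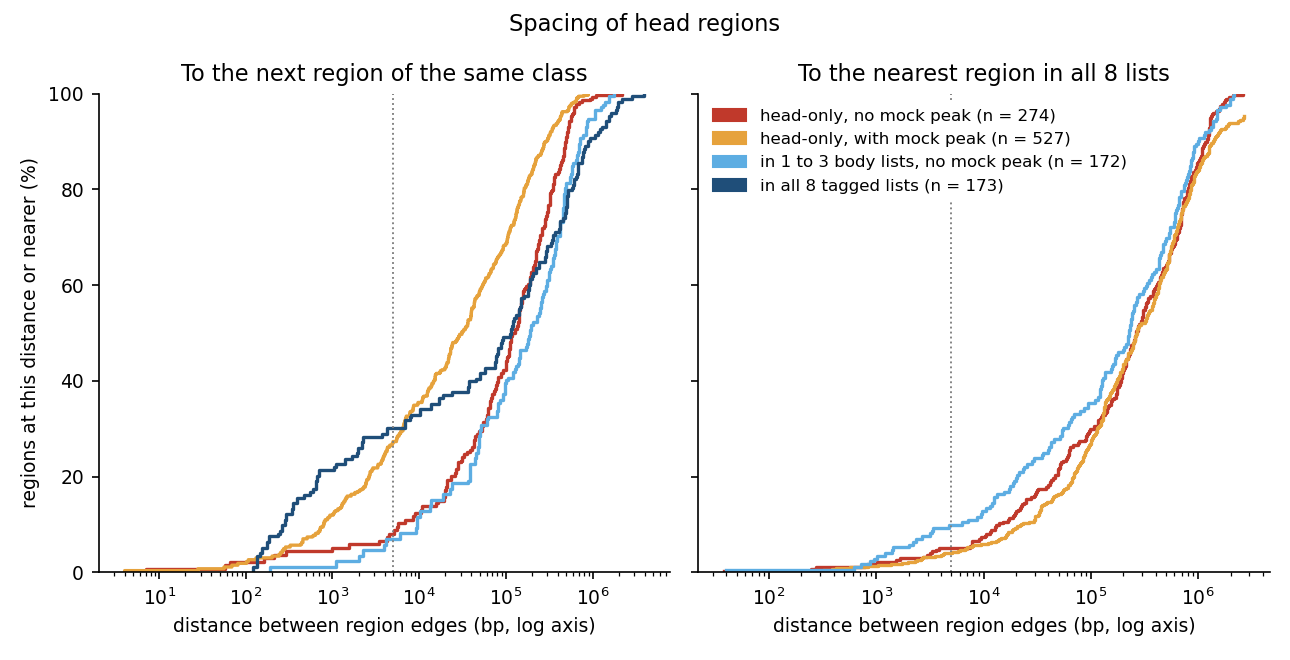
Share of regions (%) with a neighbour at or within a given distance (log axis, bp between edges): left, to the next region of the same class; right, to the nearest region in all 8 tagged lists. At 5000 bp (dotted line) the head-only regions without mock peak reach 8.03% on the left and 5.11% on the right.

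Most head-only regions lay more than 50000 bp from the sites shared by heads and bodies. The same was true of the partly shared regions and of the head-only regions with a mock peak. The median distance to the nearest shared region was 263826 bp (interval 213811 to 326121), and quartiles stood at 62303 and 698804 bp. Within 5000 bp lay 14 regions, or 5.11%, within 50000 bp 59, and 39 were 1000000 bp or more away. Within 50000 bp lay 48 of the 172 partly shared regions and 86 of the 527 head-only regions with a mock peak. The same values over all 1327 regions in the 4 head lists are not given here. Partly shared regions had a median of 224406 bp, with 9.88% within 5000 bp, and head-only regions with a mock peak had 248554 bp, with 3.98%, where the median leaves out 25 on chromosome 4, which holds no shared region. The interval of the partly shared regions, 153243 to 281952 bp, overlaps that of the head-only ones. Shared regions themselves were 115087 bp from the next shared one. Counted only to the 93 shared regions without a mock peak, the median for head-only regions was 521485 bp, since there are fewer of them to reach.

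The few head-only regions beside a shared site were of mixed strength. X 3335128 to 3335562 lay 38 bp from the shared region 3334665 to 3335090 and scored 6.79 and 5.47 in CLK and 3.25 and 3.32 in CYC. 3R 10644333 to 10644655, at 245 bp, scored 16.4 and 5.37 in CLK and 6.07 and 2.65 in CYC. 3R 4484526 to 4484878, at 273 bp from 4485151 to 4485505, was much stronger, with 83.2 and 38.5 in CLK and 15 and 10.6 in CYC. 3R 16976874 to 16977196 at 777 bp scored 64 and 25.1 in CLK and 4.89 and 4.68 in CYC. 2R 14322819 to 14323182 at 826 bp scored 53.9 and 13.3 in CLK and 5.26 and 3.5 in CYC. The nearest body peaks of these 5 regions were 38 to 826 bp away. At 3R 16976874 to 16977196 the nearest body peak, at 662 bp, was closer than the shared region.

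The most remote head-only regions were found on 3R, 3L and 2R. 3R 13672887 to 13673239 was 2603277 bp from a shared region and scored 19.6 and 12.6 in CLK and 4.52 and 4.08 in CYC. 3R 14282217 to 14282539 followed at 2098502 bp, 3L 3726982 to 3727399 at 1923006 bp and 3R 12898242 to 12898564 at 1828632 bp. The strongest of the 5 was 2R 1650481 to 1650806 at 1767204 bp, with 66.7 and 31 in CLK and 14.7 and 17.4 in CYC.

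The large chromosome arms carried head-only regions much as they carried merged regions in general, while chromosome 4 carried none. There were 71 on 3R, 62 on 3L, 52 on 2L, 48 on X and 41 on 2R. X held 17.5% of them (exact interval 13.2 to 22.5), against 16% of all merged regions and 10.4% of the shared regions (6.28 to 15.9). It held 14.4% of the 1327 regions in all 4 head lists and 18% of the partly shared regions. Chromosome 4 and the heterochromatic scaffolds held none, where 0 of 274 allows a share of up to 1.34% by the exact interval. Chromosome 4 held 4% of all merged regions, 2.03% of the regions in all 4 head lists and 25 of the 527 head-only regions with a mock peak. No partly shared and no shared region lay on it. The widest stretch without a head-only region was on X, 2509115 bp from 8805967 to 11315082, and the next was also on X, 2186120 bp from 18916556 to 21102676. The widest stretches on 3R and 3L were 2182079 bp from 2302447 and 2033243 bp from 13482266. The median log2 ratio of CLK over CYC was highest on 2L in replicate 1, at 1.96, and on X in replicate 2, at 1.3. It was lowest on 3R at 1.46 in replicate 1 and on 3L at 0.96 in replicate 2. No arm fell to equal scores.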

How the data were processed

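Reads were mapped with Bowtie 0.12.7 to dm3, per the submitters' processing notes. The peak caller is not given in the sources used here. The 12 deposited lists give per peak a position, a midpoint and 2 unnamed values, kept as the authors' deposited score. Neither has a known scale, and intervals cover counting error only. Each list belongs to 1 pull-down, and the 12 inputs were not used here. Positions are as deposited.

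Tagged peaks sharing 1 bp or more were merged, touching peaks kept apart, and the highest peak of each list stood for its region. Distances run between region edges. Libraries were compared by exact permutation. Alternatives varied the score, the overlap rule, mock and body removal, list length, the grouping gap and the libraries included. Python 3.11.15, numpy 2.4.6 and scipy 1.17.1 were used, and the merging was tested on simulated lists. Members, comparisons and lists were chosen with earlier results of these data known. Named are the 10 best placed regions, the 5 best placed groups, the 5 at each end of the ratio and of the distance to shared regions, and 3 of each kind at the edge of the rule. Genes and sequences are not reported, since the gene table at hand is of another build than dm3.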

Additional observations from a re-analysis of the deposited data

How the results depend on the processing

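The count of 274 was 801 without mock removal, 145 with the tagged and head mock lists cut to their 1153 best peaks (equal length; the body mock lists are shorter and stayed whole), and 274 to 709 without single libraries. The CLK minus CYC difference of 0.66 ran from 0.5 to 1.39 over 10 other settings and from 0.25 to 0.74 without single libraries, always positive. The replicate numbers name separate samples and mark no shared batch in the labels. Deviations of equally numbered libraries correlated at 0.32 over the 274 regions, and with the replicate block the difference was 0.66 with an exact permutation p of 0.5, the smallest that 2 pairs allow. The gap in log2 ratio to the shared regions, 0.29, was 0.12 by the second score, 0.38 above the median first score of 3.92, 0.77 at equal list length, 0.81 at strength 8 to 16, and -0.11 to 0.36 without single libraries; the cause was not tested. The grouped share of 8.03% was 26.8% without mock removal, 13.1% at equal length, 12.4% with a gap of 10000 bp and 7.75% to 24.5% without single libraries. The median distance to the next head-only region was 21852 bp without mock removal, 99829 bp with midpoints within 150 bp, 165507 bp above the median score, 204586 bp at equal length and 26802 to 121292 bp without single libraries. The distance to shared regions was 463840 bp at equal length, 521485 bp to mock-free ones and 201040 to 272619 bp without single libraries. Merging touching peaks, added later, left the count at 274. Library depth is unknown and limits what absence in bodies can show.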

Other observations

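The lists that kept regions out of the head-only class were unequal. Of the 532 regions without body or mock peak that missed 1 head list, 329 lacked a peak in CYC replicate 2, 114 in CLK replicate 2, 79 in CYC replicate 1 and 10 in CLK replicate 1. These lists hold 4848, 4609, 12086 and 13729 peaks.

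The lean to CLK varied little with the distance to a shared region. The median log2 ratio of CLK over CYC was 1.66 and 1.01 in replicates 1 and 2 at the 59 head-only regions within 50000 bp of a shared region, 1.73 and 1.22 at 117 regions between 50000 and 500000 bp, and 1.67 and 1.06 at 98 regions farther away. Their median strengths were 7.5, 6.79 and 7.01.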
